A study of Rattus norvegicus with 5 samples.

Results

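Ptgs2 encodes the inducible cyclooxygenase, and its signal was far lower in rat tendon stem/progenitor cells (rTSPCs) passaged with prim-O-glucosylcimifugin (POG) than in those passaged with solvent. The gene was chosen by that difference, so its own values are a description without a test. It was represented by 1 probe set, the only one that the platform annotation names Ptgs2, and was 1 of 7235 genes with a symbol among 10141 probe sets. The cells came from the Achilles tendon of male 3-month-old Sprague-Dawley rats, by the study's methods, and were expanded from selected colonies rather than from whole tissue. POG, a natural product of saposhnikovia root, was present at 20 μM over passages 3 to 12, and the control cells received a matching amount of dimethyl sulfoxide (DMSO). Both groups were collected at passage 12, a late passage that served the study as a model of replicative senescence, and no early-passage array was analysed here. RNA was hybridised to 5 Affymetrix arrays, of which 3 came from DMSO-treated and 2 from POG-treated rTSPCs. The comparison addressed what sustained POG exposure changed in the transcripts of late-passage rTSPCs.

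Prostanoids are short-lived lipid signals made on demand. Phospholipases release arachidonate from membranes, the cyclooxygenases turn it into prostaglandin H, and terminal synthases turn that into prostaglandins E, D and F, prostacyclin or thromboxane, which leave the cell, bind receptors on it or on its neighbours, and are taken up again and inactivated. Ptgs1 supplies a basal cyclooxygenase activity in many tissues, whereas Ptgs2 is an immediate early gene that cytokines, growth factors and mechanical load induce, and its mRNA is short-lived because of AU-rich elements. In tendon, prostaglandin E is known as a product of loaded and inflamed tendon fibroblasts, and induction of Ptgs2 has been described in senescent fibroblasts.

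The bases before the annotated start of Ptgs2 are shown because the factors that act on this promoter are described with their own values below, and those of Ptges because that gene encodes the synthase usually induced together with it. Both runs are 250 bases of the RefSeq annotation of assembly GRCr8, on the strand of the gene and 5′ to 3′, and stop at the base before the start. Ptgs2 lies at chr13:64713813-64714062 on the plus strand and Ptges at chr3:34586988-34587237 on the minus strand. Capitals mark matches to the motifs searched, on either strand.
Ptgs2: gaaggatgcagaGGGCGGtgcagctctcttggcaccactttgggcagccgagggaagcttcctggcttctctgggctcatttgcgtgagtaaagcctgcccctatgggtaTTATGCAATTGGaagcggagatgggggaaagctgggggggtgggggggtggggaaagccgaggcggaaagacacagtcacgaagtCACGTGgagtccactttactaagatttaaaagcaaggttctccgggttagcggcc
Ptges: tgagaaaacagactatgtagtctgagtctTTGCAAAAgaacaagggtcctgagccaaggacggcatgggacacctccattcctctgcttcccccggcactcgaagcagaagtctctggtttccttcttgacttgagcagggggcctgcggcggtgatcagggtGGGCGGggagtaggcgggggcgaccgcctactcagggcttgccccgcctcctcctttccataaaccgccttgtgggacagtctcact
The Ptgs2 run had a GC content of 57.2% and held a GC box (GGGCGG), 238 to 233 bases before the start, and a C/EBP motif (TTNNGCAA), 140 to 133 bases before it. The C/EBP match shared its last base with a CCAAT box (CCAAT, read on the minus strand), and an E-box (CACGTG) stood 55 to 50 bases before the start. The core of the hypoxia response element (ACGTG) matched on both strands inside that E-box. Among 33469 rat promoters of the same length, 30.5% held the GC box, 9.22% the C/EBP motif, 34.0% the CCAAT box, 5.59% the E-box and 16.6% the hypoxia core. The Ptges run had a GC content of 58.8% and also held a C/EBP motif, on the minus strand 221 to 214 bases before the start, and a GC box 87 to 82 bases before it. Neither run held the full cyclic AMP response element (TGACGTCA, in 1.59% of promoters), the AP-1 motif (TGANTCA, 6.34%), the TATA box letters TATAAA (12.9%), the NF-kB motif (3.54%) or the serum response element (1.5%). The motifs were picked with the sequence known, and a match in letters is not a bound site. Bases farther upstream were not searched, so a motif absent from these runs may stand there.

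The log2 signal of Ptgs2 was 16.26, 16.40 and 16.29 in the DMSO arrays and 10.75 and 10.52 in the POG arrays. The groups did not overlap, and the lowest DMSO array stood 5.51 above the highest POG array on the log2 scale, against a range of 0.14 among the DMSO arrays and 0.23 between the POG arrays. The group means were 16.32 ± 0.07 (SD, n = 3) and 10.64 ± 0.16 (SD, n = 2), a difference of -5.68 ± 0.17 (SE of the fit), or 51.3-fold lower on the linear scale. Even so, the POG mean lay above 6.17, the lower quartile of all log2 signals, so that the probe set kept a signal well inside the measured range of 2.98 to 19.47. Over all probe sets the median difference was 0.11, and Ptgs2 stood at -5.79 relative to it. In bulk RNA of this kind, fewer cells that express Ptgs2 and less Ptgs2 RNA per cell cannot be told apart.

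Among named probe sets, Ptgs2 had the 6th largest decrease. Just ahead of it were Myh11, the smooth muscle myosin heavy chain (-5.91 ± 0.18), Mcam, an adhesion molecule of pericytes and smooth muscle (-6.63 ± 0.17), and Acan, the large cartilage proteoglycan (-6.67 ± 0.18). Just behind it were Actg2, the enteric smooth muscle actin (-5.58 ± 0.18), Acta1, the skeletal muscle actin (-5.56 ± 0.24), and Gprc5a, an orphan receptor induced by retinoic acid (-5.51 ± 0.19). From Ptgs2 to Gprc5a the steps in this order were smaller than the SEs.

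**Figure D1:**
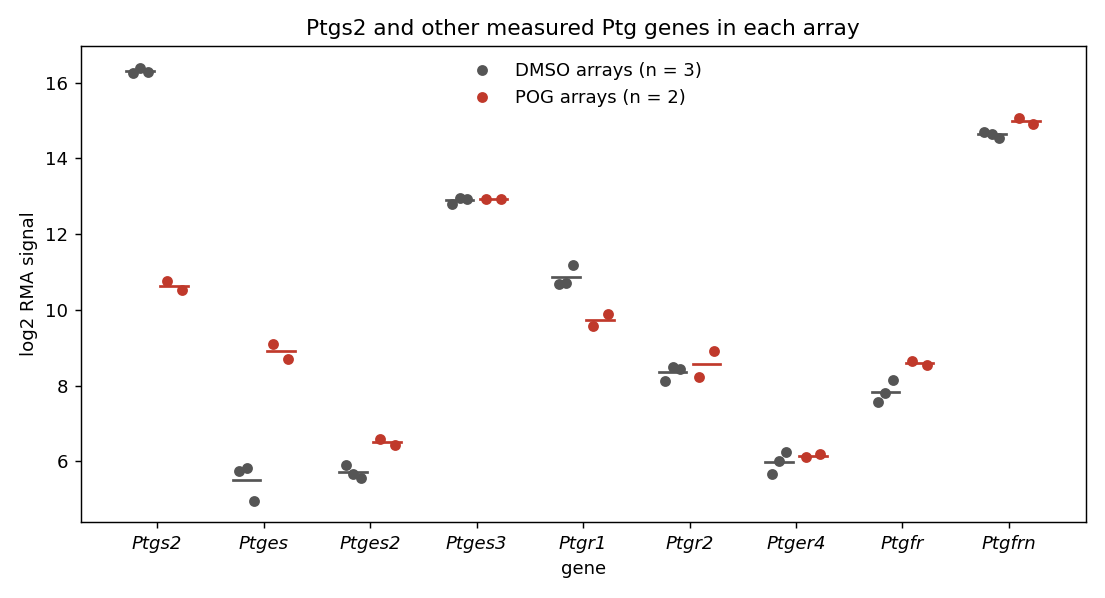
Log2 RMA signal (vertical axis) of Ptgs2 and the other 8 measured genes whose symbols start with Ptg (horizontal axis). Grey points are the 3 DMSO arrays, red points the 2 POG arrays and short lines the group means. Ptgs2 drops from about 16.3 to 10.6, while Ptges lies higher in both POG arrays than in any DMSO array.

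Changes were widespread in this comparison. Of all probe sets, 46.3% passed a limma adjusted p of 0.05 (Benjamini-Hochberg over 10141 probe sets). They split into 26.7% with a higher signal in POG-treated rTSPCs and 19.6% with a lower one. These shares are the background for each count of calls given here. Without POG replicate 2 the counts moved from 2707 to 1586 higher and from 1987 to 1314 lower probe sets. The SD over probe sets of the difference between 2 arrays was 0.323 to 0.375 inside a group and 0.991 to 1.04 across groups. For groups that do not overlap, no share over all probe sets was counted. Genes that did not pass could lack overlap too, such as Anxa1 and Elavl1. The labels speak of biological replicates but name no separate cultures or animals, so each p-value reflects no more than the spread among these 5 arrays, and that spread may be technical. Of 13 tendon and mesenchymal markers 10 were measured, with a median difference of -0.33. Mcam (CD146), which the study stained to count endogenous rTSPCs in tendon, was listed with the smooth muscle genes instead (-6.63 ± 0.17). The hyaluronan receptor Cd44 was lower (-1.26 ± 0.19, limma adjusted p = 6.03e-04), as was the integrin chain Itgb1 (-0.78 ± 0.17, 0.00440), and the other 8 did not pass. The count of lower markers was 4 after centring and also for brighter probe sets alone, and 5 under limma's trended, robust moderation. Signals of Col1a1 were 19.18 to 19.47 and of Thy1 16.56 to 16.74, whereas Scx, the tendon transcription factor, stayed at 5.55 to 6.11, under the lower quartile. Other marker lists moved with the groups. Of 11 measured smooth muscle genes (14 listed) 9 were lower with POG, and their mean log2 signal was 13.40 to 13.47 in the DMSO arrays and 9.92 to 10.17 in the POG arrays. All 5 measured leukocyte genes of 16 listed were higher, with a mean log2 signal of 5.0 to 5.43 against 6.59 to 7.05, although 4 of the 5 had a DMSO mean under the lower quartile. Without POG replicate 2 the count was 3, since Fcer1g (0.0867) and Cd14 (0.167) no longer passed, and by the methods' t-test it was 3 as well. Cd14 also missed the threshold without DMSO replicate 2 (0.0628). Of 3 measured endothelial genes (10 listed) Kdr was higher and Cd34 lower. The part of these markers in the low Ptgs2 signal was not tested.

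Across the lists of prostanoid biology, which hold some genes under another name as well, 33 of 68 symbols were measured beside Ptgs2. None of these genes decreased as much as Ptgs2, which follows largely from the choice of Ptgs2 by the size of its decrease. POG-treated rTSPCs had higher signals of 10 of these genes and lower signals of 3, and the other 20 did not pass, a called share of 39.4% against 46.3% of all probe sets. Their median difference was 0.24, against 0.11 for all probe sets, and they ranged from -2.27 (Slco2a1) to 3.39 (Ptges). The count of lower genes depended on 1 library and on the scaling. Without DMSO replicate 1 it was 5, since Pla2g4a (adjusted p = 0.0415) and Dagla (0.0292) then passed limma's test, and with each array centred on its median it was 6.

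The genes that supply or process arachidonate were higher with POG or did not pass. Of 31 listed, 15 were measured, and 4 were higher with POG while 11 did not pass. The called share was 26.7%, against 46.3% of all probe sets. Lower genes numbered 2 after quantile normalization, 3 after centring and 2 among brighter probe sets alone. Fads2, the desaturase of the first step towards arachidonate, gave 12.12, 12.08 and 11.92 in the DMSO arrays and 14.25 and 14.03 in the POG arrays. Fads1, which forms arachidonate itself, gave 13.87, 14.08 and 13.97 against 15.65 and 15.73. Fads2 rose by 2.10 ± 0.17 (limma adjusted p = 9.63e-06) and Fads1 by 1.72 ± 0.17 (3.22e-05). Pla2g2a, a secreted phospholipase A known from inflamed tissue, gave 3.68, 3.38 and 3.66 in the DMSO arrays and 5.97 and 6.01 in the POG arrays. It rose by 2.42 ± 0.18 (limma adjusted p = 4.03e-06), with both group means under the lower quartile of all signals. Lpcat3, which loads arachidonate into phospholipids, differed by 0.62 ± 0.19 (limma adjusted p = 0.0231), and lost the call without DMSO replicate 1 (0.0550) or without either POG replicate (0.0979 and 0.0990).

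Pla2g4a, the cytosolic phospholipase A that feeds the cyclooxygenases on stimulation, gave 9.91, 10.04 and 10.36 in the DMSO arrays and 9.71 and 9.55 in the POG arrays. The groups did not overlap, but the difference of -0.47 ± 0.19 did not pass (limma adjusted p = 0.0654). It passed after quantile normalization (0.0381), centring (0.0314) or a restriction to brighter probe sets (0.0353). Dagla, which makes the arachidonate-bearing endocannabinoid, differed by -0.73 ± 0.29 (adjusted p = 0.0587), and Mgll, the lipase that releases arachidonate from it, by -0.02 ± 0.20. The remaining 8, among them the calcium-independent phospholipase Pla2g6 (0.24 ± 0.17) and annexin Anxa1 (0.22 ± 0.17), ranged from -0.41 for Abhd12 to 0.47 for Acsl3.

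Downstream of the cyclooxygenases, the measured genes listed for prostanoid synthesis were higher with POG or did not pass. Of 16 symbols listed for prostanoid synthesis 8 were measured beside Ptgs2, with a median difference of 0.80. Of these, 4 were higher and 4 did not pass. Ptgs1, the constitutive cyclooxygenase, and Ptgis, Ptgds and Tbxas1, the synthases of prostacyclin, prostaglandin D and thromboxane, were not analysed here. Ptges, the inducible microsomal prostaglandin E synthase, gave 5.75, 5.83 and 4.96 in the DMSO arrays and 9.09 and 8.71 in the POG arrays. The lowest POG array stood 2.88 above the highest DMSO array, and Ptges rose by 3.39 ± 0.27 (limma adjusted p = 6.98e-06), from a DMSO mean under the lower quartile, which may be background. Ptges and Ptgs2, which act one after the other, thus differed in opposite directions in both POG arrays. Ptges2, a membrane-associated synthase of the same product, gave 5.89, 5.66 and 5.57 against 6.6 and 6.44, a rise of 0.81 ± 0.18 (limma adjusted p = 0.00487) that also started from a DMSO mean under the lower quartile.

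Ptges3, the cytosolic form and a co-chaperone of the heat shock protein Hsp90, gave 12.79, 12.95 and 12.94 against 12.94 in both POG arrays. Its groups overlapped, and the difference of 0.05 ± 0.17 (limma adjusted p = 0.833) turned to -0.04 after centring. The glutathione transferases Gstm5 and Gstm2, of the mu class, were higher by 1.35 ± 0.22 (limma adjusted p = 9.55e-04) and 0.87 ± 0.18 (0.00401). Cbr1, which can reduce prostaglandin E to prostaglandin F, gave 8.02, 9.23 and 9.28 against 9.64 and 9.61, with DMSO replicate 1 well below the others, and its difference of 0.78 ± 0.33 did not pass (0.0803). It passed without DMSO replicate 3 (0.0413) and with replicate number as a block (0.0215). These are not separate checks, since the block gives DMSO replicate 3 no weight in the difference. Hpgds, the haematopoietic prostaglandin D synthase, differed by 0.41 ± 0.18 (0.0880), and Akr1b1, a prostaglandin F synthase, by -0.06 ± 0.19.

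**Figure D2:**
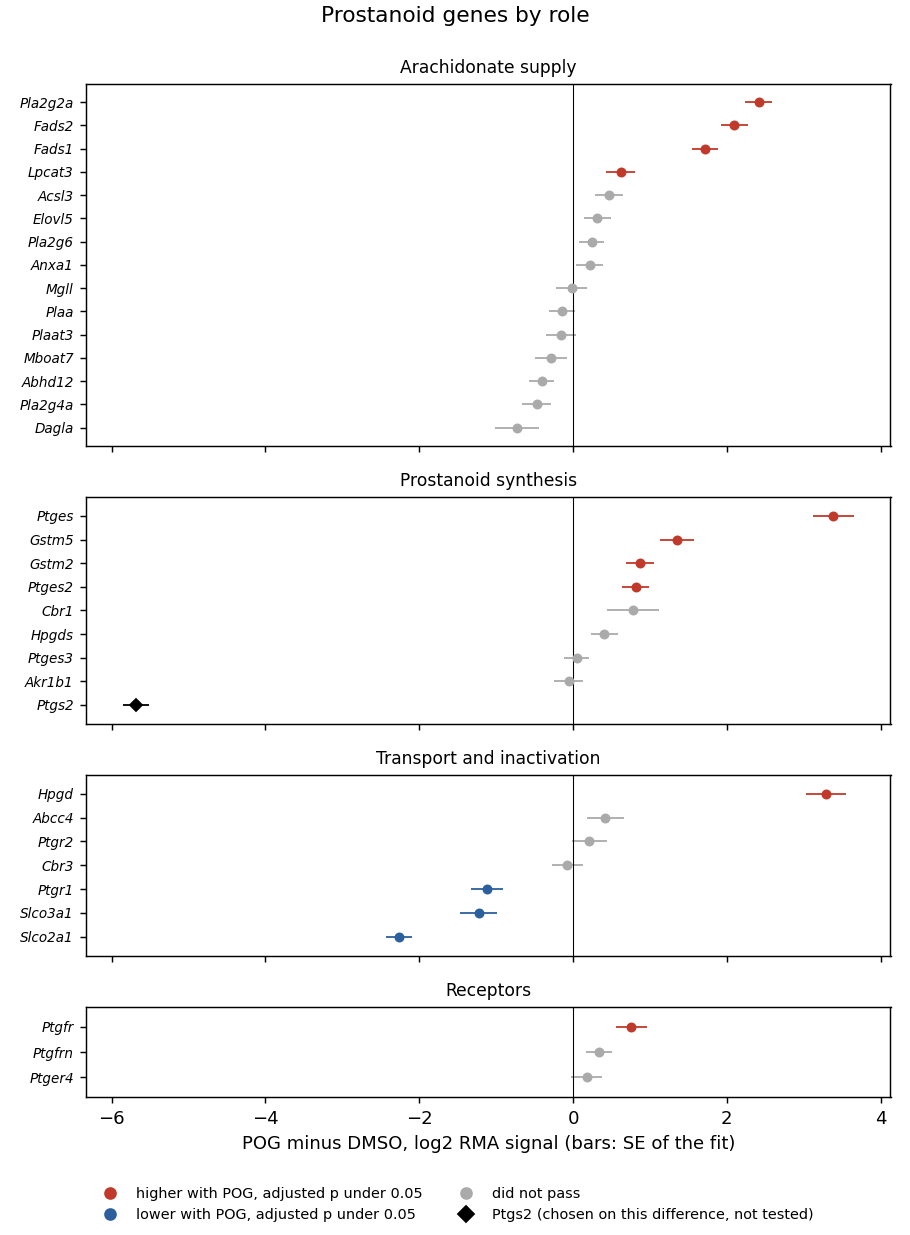
Difference between POG and DMSO arrays in log2 RMA signal (horizontal axis) for each measured gene (vertical axis) of arachidonate supply, prostanoid synthesis, transport and inactivation, and receptors. Bars are the SE of the fit, colours give the limma call, and the black diamond is Ptgs2, shown without a test. Ptgs2, chosen for its decrease, lies at -5.68, to the left of Slco2a1 at -2.27, and Ptges and Hpgd lie at the right edge.

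The genes that clear prostaglandins were split. Of 11 listed 7 were measured, with 1 higher, 3 lower and 3 that did not pass, a called share of 57.1% against 46.3% of all probe sets. Hpgd, the dehydrogenase that starts the inactivation of prostaglandin E, gave 6.11, 5.14 and 5.66 in the DMSO arrays and 8.98 and 8.87 in the POG arrays. It rose by 3.29 ± 0.26 (limma adjusted p = 6.74e-06), again from a DMSO mean under the lower quartile. Slco2a1, the transporter that takes prostaglandins back into the cell for that step, gave 11.03, 10.76 and 10.88 against 8.62 and 8.63, and fell by 2.27 ± 0.17 (5.20e-06). Uptake and oxidation, which work in sequence, therefore had transcript differences of opposite sign.

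Ptgr1, a reductase that acts after Hpgd, gave 10.67, 10.72 and 11.18 in the DMSO arrays and 9.57 and 9.90 in the POG arrays, and fell by 1.12 ± 0.21 (limma adjusted p = 0.00207). Its relative Ptgr2 gave 8.13, 8.5 and 8.44 against 8.22 and 8.92, with overlapping groups (0.21 ± 0.23, adjusted p = 0.471). Slco3a1, an organic anion transporter that can carry prostaglandins, gave 9.08, 9.70 and 9.58 against 8.51 and 7.95, and fell by 1.22 ± 0.24 (0.00271). Abcc4, which exports prostaglandins, differed by 0.42 ± 0.24 (0.181), and the reductase Cbr3 by -0.07 ± 0.21 (0.795).

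Of 10 prostanoid receptors and associated proteins 3 were measured. Ptgfr, the receptor for prostaglandin F, gave 7.56, 7.81 and 8.14 in the DMSO arrays and 8.65 and 8.54 in the POG arrays. It was higher by 0.76 ± 0.20 (limma adjusted p = 0.0127), a call lost without POG replicate 1 (0.0826) or POG replicate 2 (0.0571). Ptger4, a receptor for prostaglandin E that raises cyclic AMP, gave 5.66, 6.0 and 6.25 against 6.10 and 6.20, with overlapping groups and signals near the lower quartile (0.18 ± 0.20, adjusted p = 0.491). Ptgfrn, a membrane protein that binds Ptgfr, gave 14.71, 14.65 and 14.55 against 15.06 and 14.90 (0.34 ± 0.17, adjusted p = 0.118). Over the 8 other measured genes whose symbols start with Ptg, 3 were higher (Ptges, Ptges2 and Ptgfr), 1 was lower (Ptgr1) and 4 did not pass. Their called share was 50%, against 46.3% of all probe sets, and their median difference was 0.28.

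Factors known to act on Ptgs2 transcription moved in both directions. Of 43 listed 37 were measured, of which 13 were lower, 7 higher and 17 did not pass, with a median difference of -0.25. The called share was 54.05%, against 46.3% of all probe sets. With either POG replicate left out, 4 were higher. Nfatc1, a calcineurin-dependent factor, gave 10.91, 11.42 and 11.05 in the DMSO arrays and 7.45 and 7.23 in the POG arrays, and fell by 3.79 ± 0.20 (limma adjusted p = 4.75e-07). The AP-1 subunits Fosl1 and Jun fell as well, Fosl1 from 10.52, 11.07 and 11.24 to 8.85 and 8.72 (-2.16 ± 0.23, 4.93e-05) and Jun from 12.10, 12.39 and 11.89 to 10.49 in both POG arrays (-1.64 ± 0.19, 1.13e-04). Their array values did not overlap between the groups, which was also so for some genes that did not pass. Fos gave signals of 5.42 to 6.0, under the lower quartile in every array, and did not pass (-0.37 ± 0.18, adjusted p = 0.111). Ets2, of the ETS family, fell by 1.73 ± 0.20 (1.17e-04).

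The C/EBP factors Cebpd and Cebpb were higher. A C/EBP motif stands in both promoter runs printed above, but a link between it and these values was not tested. Cebpd gave 5.95, 6.58 and 6.55 in the DMSO arrays and 9.95 and 9.35 in the POG arrays, a rise of 3.29 ± 0.25 (limma adjusted p = 5.47e-06). Cebpb gave 5.63, 5.20 and 5.74 against 6.25 and 6.67, a rise of 0.94 ± 0.22 (0.00656) that did not pass without POG replicate 2 (0.0779), and its DMSO mean lay under the lower quartile. Hif1a, the hypoxia-inducible factor, rose by 1.55 ± 0.18 (1.24e-04). All 3 factors differed in the direction opposite to Ptgs2.

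Of the NF-kB subunits 3 were measured, of which Nfkb1 and Nfkb2 were lower and Rela did not pass. Nfkb1 gave 8.83, 8.49 and 9.10 in the DMSO arrays and 8.05 and 7.87 in the POG arrays, and fell by 0.85 ± 0.21 (limma adjusted p = 0.00870). Nfkb2 gave 8.0, 7.9 and 8.88 against 7.48 and 6.73, and fell by 1.16 ± 0.31 (0.0140). Neither call held without POG replicate 2, where the differences were -0.76 for Nfkb1 and -0.78 for Nfkb2. Rela, the subunit that carries the activation domain, gave 13.02, 13.20 and 12.96 against 12.74 and 12.49. Its difference of -0.45 ± 0.18 did not pass (limma adjusted p = 0.0630). It passed after centring (0.0349), among brighter probe sets (0.0324), with trend and robust moderation (0.0194) and with array weights (0.0483). NF-kB activity is set by release from inhibitors in the cytoplasm, which an array does not measure. Creb1, the factor of the cyclic AMP response element, differed by 0.44 ± 0.16 (0.0522).

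Genes that act on the stability or translation of AU-rich mRNAs such as that of Ptgs2 were mixed too. They comprise RNA-binding proteins, parts of deadenylases and kinases. Of the measured members 62.5% were called, against 46.3% of all probe sets. Of 24 listed 16 were measured, of which 7 were higher, 3 lower and 6 did not pass, with a median difference of 0.26, and 4 were higher without POG replicate 1. Zfp36l1, a destabilising zinc finger protein, gave 9.57, 9.38 and 9.54 in the DMSO arrays and 11.35 and 11.29 in the POG arrays, a rise of 1.82 ± 0.17 (limma adjusted p = 2.03e-05). Its relatives went down, Zfp36 (tristetraprolin) from 8.35, 7.80 and 8.46 to 6.82 and 6.81 (-1.39 ± 0.22, 7.23e-04), and Zfp36l2 fell by 0.84 ± 0.17 (0.00345). The 3 members of this family thus did not share a direction. Tia1, which represses translation of AU-rich mRNAs, rose by 1.62 ± 0.29 (0.00176), the splicing factor Hnrnpa1 by 1.44 ± 0.25 (0.00134) and the deadenylase Cnot8 by 0.88 ± 0.19 (0.00454, and 0.0550 without POG replicate 2). Elavl1 (HuR), which stabilises Ptgs2 mRNA, gave 11.44, 11.26 and 11.35 against 11.45 and 11.48 (0.12 ± 0.17, adjusted p = 0.593).

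**Figure D3:**
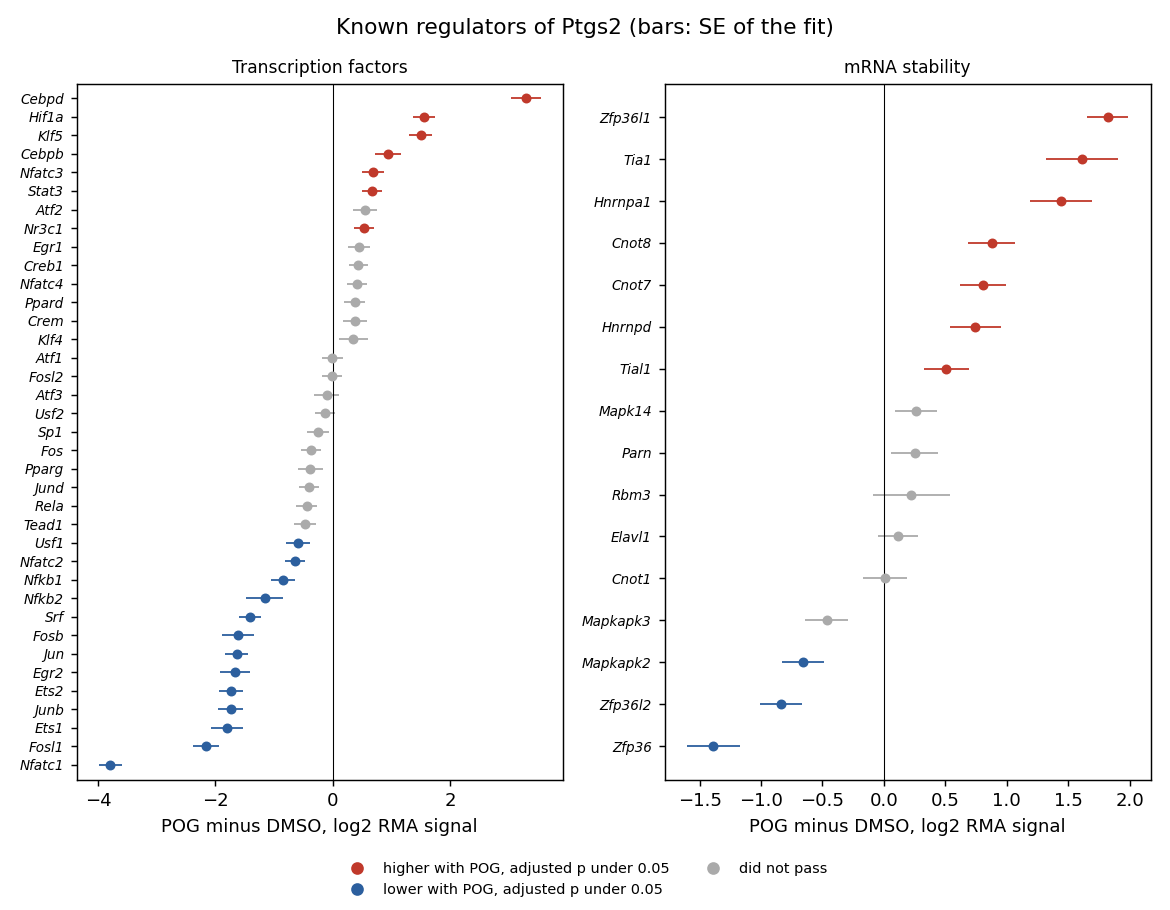
Difference between POG and DMSO arrays in log2 RMA signal (horizontal axes, drawn to different scales) for the 37 measured factors known to act on Ptgs2 transcription and the 16 measured genes of mRNA stability (vertical axes). Bars are the SE of the fit and colours give the limma call. Nfatc1 at -3.79 and Cebpd at 3.29 are the extremes among the transcription factors.

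Signals that induce Ptgs2, with their receptors and antagonists, held some of the larger differences among its pathway genes. Of the measured ones 65.6% were called, against 46.3% of all probe sets. Of 47 listed 32 were measured, of which 12 were lower, 9 higher and 11 did not pass, with a median difference of -0.24, and 4 were higher without POG replicate 2. Il1rn, the secreted antagonist of the interleukin-1 receptor, gave 9.23, 9.52 and 10.02 in the DMSO arrays and 17.03 and 16.80 in the POG arrays. The groups were 6.78 apart, and Il1rn rose by 7.33 ± 0.24 (limma adjusted p = 2.25e-08). Il1rap, the accessory chain through which that receptor signals, gave 10.13, 10.18 and 10.20 against 7.80 and 7.75, and fell by 2.40 ± 0.16 (2.53e-06). Il1b, Il1r1 and Tnf were not analysed here.

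The growth factors with the smallest p in this list were lower. Fgf2, a mitogen of mesenchymal cells, gave 15.01, 14.95 and 14.75 in the DMSO arrays and 10.35 and 10.62 in the POG arrays, and fell by 4.42 ± 0.18 (limma adjusted p = 1.06e-07). Hbegf, a ligand of the epidermal growth factor receptor, gave 15.61, 15.73 and 15.96 against 12.57 and 12.72, and fell by 3.12 ± 0.18 (8.29e-07). Pdgfa fell by 2.34 ± 0.17 (3.39e-06), whereas its receptor Pdgfra rose by 2.64 ± 0.17 (1.82e-06). The groups did not overlap for these genes, a trait that genes short of the threshold could share.

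Genes that inflammatory stimuli induce along with Ptgs2 did not move as one. Of 30 listed 22 were measured, of which 8 were lower, 7 higher and 7 did not pass, with a median difference of -0.14. The called share was 68.2%, against 46.3% of all probe sets. Plaur, the urokinase receptor, gave 12.08, 12.34 and 12.60 in the DMSO arrays and 8.02 and 8.13 in the POG arrays, and fell by 4.26 ± 0.20 (limma adjusted p = 2.08e-07). Inhba, the activin A subunit, fell by 4.19 ± 0.24 (8.29e-07) and Sphk1, which makes sphingosine phosphate, by 2.31 ± 0.21 (1.72e-05). The collagenase Mmp13 gave 4.55, 4.61 and 4.78 against 8.33 and 8.53 and rose by 3.78 ± 0.17 (2.09e-07) from under the lower quartile, stromelysin Mmp3 rose by 3.06 ± 0.17 (6.36e-07) and the chemokine Ccl7 by 2.52 ± 0.16 (1.90e-06). Il6, often measured beside Ptgs2 as a senescence-associated cytokine, gave 8.73, 9.03 and 9.04 against 9.22 and 9.43, and its difference of 0.39 ± 0.18 did not pass (0.103). The study, by contrast, reported reduced Il6 mRNA by RT-qPCR in POG-treated rTSPCs at passage 12. It also reported lower expression of genes of the senescence-associated secretory phenotype by microarray. Cxcl1, a neutrophil chemokine, gave 5.54, 5.33 and 5.49 against 6.37 and 6.27, a rise of 0.87 ± 0.17 (0.00261) from a DMSO mean under the lower quartile.

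**Figure D4:**
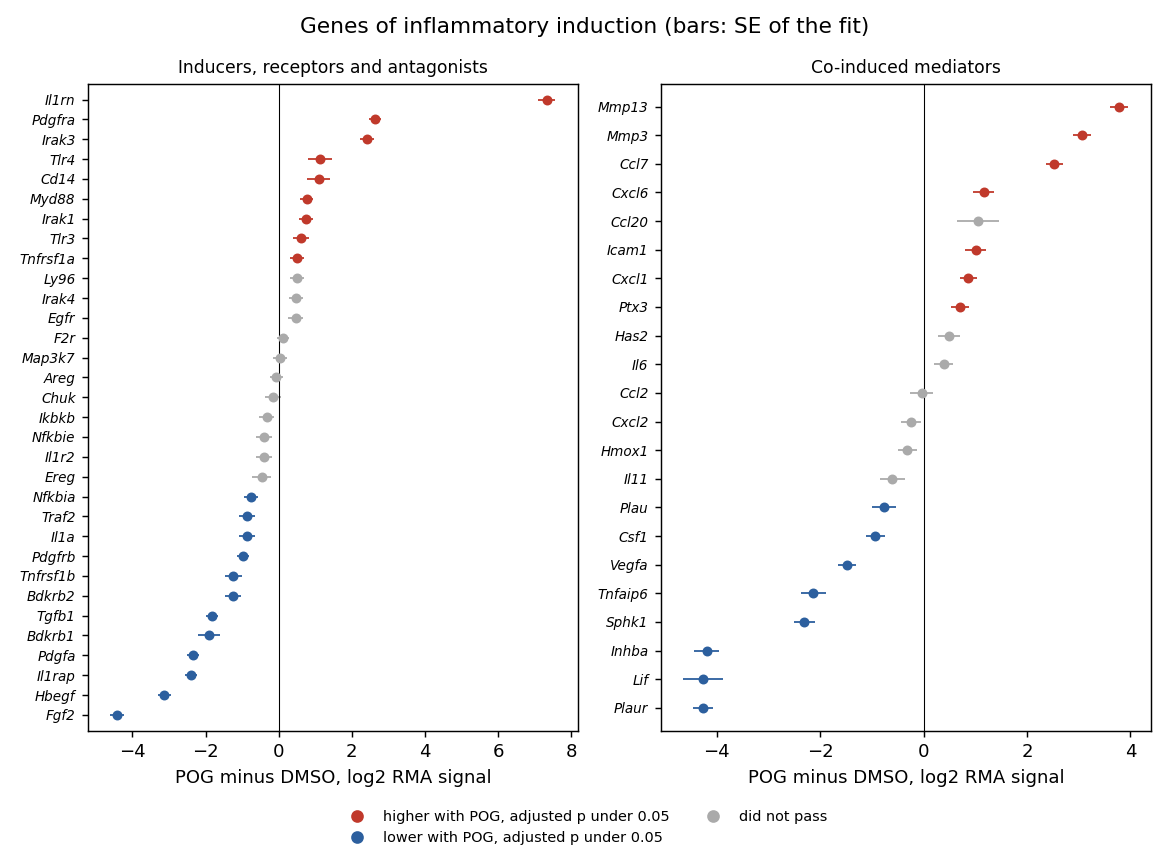
Difference between POG and DMSO arrays in log2 RMA signal (horizontal axes, drawn to different scales) for the 32 measured inducers, receptors and antagonists and the 22 measured genes that are induced with Ptgs2 (vertical axes). Bars are the SE of the fit and colours give the limma call. Il1rn stands apart at 7.33, and the calls are 12 lower and 9 higher on the left, 8 lower and 7 higher on the right.

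The genes with a profile nearest to Ptgs2 were found by the root-mean-square distance over the 5 arrays between log2 values, each taken as the difference from that gene's mean over the DMSO arrays. Among 7239 other named probe sets the nearest was Gprc5a, at a distance of 0.175, with 11.24, 11.69 and 11.67 in the DMSO arrays and 6.07 and 5.97 in the POG arrays. Actg2 followed at 0.187 (12.33, 12.60 and 12.65 against 6.83 and 7.07) and Myh11 at 0.215 (13.44, 13.38 and 13.07 against 7.35 and 7.42). Acta1 (0.281), Slc6a6, the taurine transporter (0.291), and Gfod1, an oxidoreductase domain gene (0.345), completed the nearest 6. The POG means of Gprc5a and Acta1 lay under the lower quartile of all signals. Of the 6, 3 encode contractile proteins, and Myh11 and Actg2 were also on the smooth muscle list given above. Slc6a6 gave 16.06, 16.21 and 16.09 against 10.92 and 10.86, and was the only one of the 6 that also ranked among the first 6 by Pearson correlation over the 5 arrays. With 5 arrays in 2 groups that measure hardly separates genes, since 294 named probe sets, or 4.06%, had a correlation with Ptgs2 above 0.99. The distance in turn mainly follows the size of the decrease, by which Ptgs2 was chosen. Gprc5a, Actg2, Myh11 and Acta1 were already its neighbours in the order of decreases given above. The distances describe these arrays and carry no test.

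**Figure D5:**
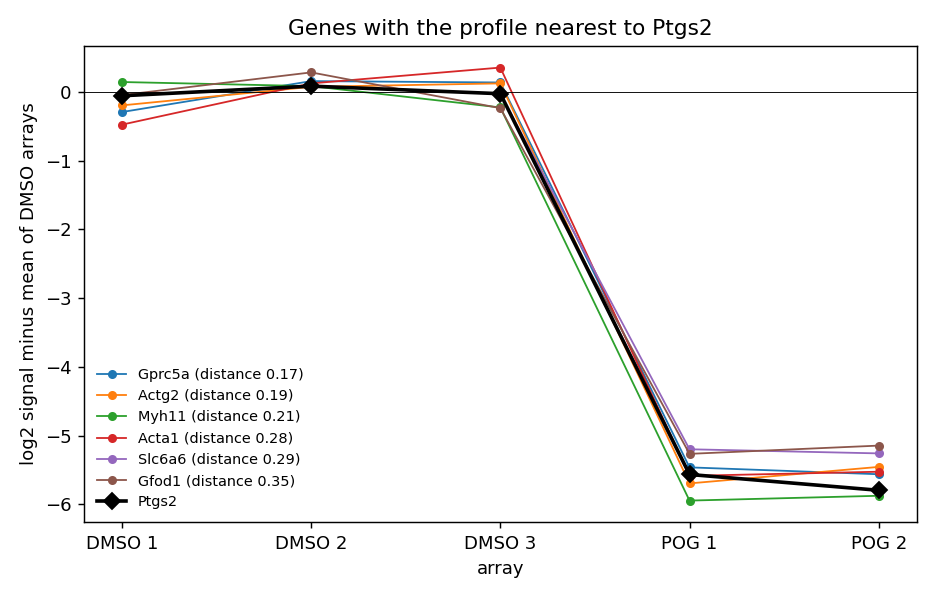
Log2 signal minus the mean of the DMSO arrays (vertical axis) in each of the 5 arrays (horizontal axis) for Ptgs2, in black, and the 6 named genes nearest to it, in colour. Lines only join the values of 1 gene. All 7 genes stay within 0.5 of the DMSO mean in the DMSO arrays and lie more than 5 below it in both POG arrays.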

How the data were processed

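Total RNA of 5 samples was hybridised to Affymetrix rat arrays, and the authors deposited a log2 signal for each probe set from robust multi-array average (RMA), which the submitters' processing notes name without a version. A second table was identical (0 of 10141 probe sets differed). How probe sets were chosen is not given in the sources used here. For 7240 probe sets the platform annotation gave 1 symbol, and none for 2901. The array that the study names and the annotated platform carry different names, which was not settled. Symbols of the 96 named genes were unchanged in the GRCr8 gene table, used for names and promoters. No detection calls were used, so a low signal may be background. Precision is limited by the number of arrays.

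Probe sets were compared with limma 3.58.1 in R 4.3.3 (two-sided, Benjamini-Hochberg over all probe sets, threshold 0.05), first tested on simulated data. A gene with several probe sets took the one of highest mean signal. Ptgs2, the lists and the tests were chosen with earlier results of these data known, and lists have counts and medians only. Named genes were the measured Ptg and prostanoid genes, up to 6 members with the smallest p in each other list, a fixed set of known regulators, and the 6 nearest profiles. Replicate numbers pair nothing in the labels. Alternatives were the second table, quantile normalization, median centring, brighter probe sets (mean of at least 8.45), trend and robust moderation, array weights, a replicate block, leaving out each array, and the methods' t-test at a p of 0.05 and 1.5-fold.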

Additional observations from a re-analysis of the deposited data

How the results depend on the processing

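The difference of Ptgs2 kept its direction under each alternative run and stayed between -5.80 and -5.57, the values without POG replicate 1 and without POG replicate 2. All 64 named genes past the threshold kept their direction under each of the 14 alternatives that included them, and 46 of them also kept the call. The restriction to brighter probe sets left out 18 of the 64. Of the 32 named genes that did not pass, 14 passed under some alternative and 5 turned direction. Mgll turned to 0.01 with the replicate block and ranged from -0.23 to 0.19 when 1 array was left out, Akr1b1 turned to 0.04 with the block and ranged from -0.175 to 0.04, Cbr3 from -0.225 to 0.09, Ptgr2 from -0.14 to 0.56, and Ptges3, which turned to -0.04 after centring, from -0.005 to 0.075. The cause was not tested.

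Over all probe sets 2707 were higher and 1987 lower, and the split moved to 2291 and 2307 with median centring and to 2330 and 2212 with quantile normalization. Brighter probe sets alone, which are fewer, gave 1560 higher ones. The methods' t-test gave 1064 higher and 1014 lower after Benjamini-Hochberg adjustment (1868 and 1452 at the methods' thresholds), and leaving out 1 array gave 1586 to 2480 higher and 1314 to 1931 lower, both lowest without POG replicate 2. The replicate block gave 2462 and 1731. It gives DMSO replicate 3 no weight in a difference, since no POG array shares its number. Deviations of same-numbered arrays from their group means had correlations of 0.00417 and 0.00522. The deviations of the POG arrays mirror each other, so these correlations are not separate checks. Whether the numbers pair arrays was not settled.

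Prostanoid genes numbered 6 higher and 5 lower among brighter probe sets, 6 higher in the adjusted methods' t-test, 5 lower after quantile normalization and 6 after centring. Without 1 array they numbered 8 to 11 higher and 3 to 5 lower. Transcription factors gave 4 to 7 higher without 1 array and 8 lower in the adjusted methods' t-test. Genes of mRNA stability gave 4 to 7 higher without 1 array and 1 in that test. Inducers gave 4 to 9 higher without 1 array, 3 higher and 6 lower in that test, 5 higher at the methods' thresholds, and 7 lower among brighter probe sets. Co-induced genes gave 4 higher among brighter probe sets and 4 in that test. By Pearson correlation 1 of the 6 nearest genes stayed, while centring cannot alter their distances. A group mean under the lower quartile of all signals, which may be background, limits the size of the difference for 23 named genes, of which 16 passed.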

Other observations

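Arachidonate also feeds the lipoxygenase, leukotriene and epoxide branches, of which 9 of 23 listed genes were measured. With POG 3 were higher, 1 was lower and 5 did not pass, with a median difference of 0.13. The called share was 44.4%, against 46.3% of all probe sets. Ephx1, the microsomal epoxide hydrolase, gave 9.52, 9.36 and 9.64 in the DMSO arrays and 5.98 and 6.01 in the POG arrays, and fell by 3.51 ± 0.17 (limma adjusted p = 3.01e-07) to a POG mean under the lower quartile of all signals. The microsomal glutathione transferases rose. Mgst2, which can form leukotriene C, gave 11.41, 11.33 and 11.59 against 13.84 and 13.92, a rise of 2.44 ± 0.17 (limma adjusted p = 3.29e-06). Mgst1 rose by 0.70 ± 0.19 (0.0124, and 0.109 without POG replicate 1) and Mgst3 by 0.82 ± 0.23 (0.0146, and 0.157 without POG replicate 2). Lta4h, the leukotriene A hydrolase, gave 9.56, 9.51 and 9.96 against 9.93 and 9.69, with overlapping groups (0.13 ± 0.20, adjusted p = 0.602). Gpx4, which reduces lipid hydroperoxides, differed by 0.13 ± 0.16 (0.535). The lipoxygenase genes of the list were not analysed here.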
